A study of Rattus norvegicus with 6 samples.

Results

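The genes of dietary fat absorption and chylomicron assembly were examined in the intestines of male pups from HFD-sitagliptin dams and from HFD dams. They were chosen as a list of 10 genes for fatty acid uptake, re-esterification and lipoprotein formation, and 7 of the 10, among 18166 genes in all, were measured on the arrays under exactly 1 gene symbol. These are *Fabp1*, *Fabp2*, *Mogat2*, *Dgat1*, *Apob*, *Mttp* and *Apoa4*. *Cd36* was not used here because its transcript cluster carries 2 symbols, and *Apoa1* and *Apoc3* were not analysed here.

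All pups were Sprague Dawley rats of 3 weeks of age, the time of weaning, and the dams of both groups ate a high-fat diet before mating and through pregnancy and lactation. HFD-sitagliptin dams also received oral sitagliptin, an inhibitor of dipeptidyl peptidase 4, in pregnancy and lactation, and HFD dams did not, so the drug was given to the mother and not to the pup. Each group had 3 pups with 1 Affymetrix Rat Gene 2.0 ST array each, and the comparison asks whether maternal sitagliptin moved intestinal expression in the offspring. The methods drew 1 male pup from each litter, but the labels name no litter, and neither names the segment of intestine. The values are the authors' normalized log2 values, so a difference of 1 is a doubling of the signal.

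Fat from the diet enters the enterocyte as fatty acids and monoacylglycerol. Binding proteins of the cytosol carry the fatty acids, acyltransferases of the endoplasmic reticulum rebuild triacylglycerol from them, and microsomal triglyceride transfer protein loads that fat onto apolipoprotein B to form the chylomicron, which leaves by way of the lymph. The suckling rat lives on milk, a diet rich in fat, and its small intestine carries this machinery at birth.

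The arrays did not all carry the genes of small intestine. *Si*, which encodes the disaccharidase sucrase-isomaltase of villus enterocytes, was at 2.72 on the log2 scale in HFD-sitagliptin replicate 1, while the other 5 arrays lay at 11.39 to 12.49. The colonocyte carbonic anhydrase gene *Car1* was at 12.41 there and at 3.41 to 4.04 elsewhere, and *Hoxa13*, a hindgut transcription factor, was at 6.53 there and at 3.35 to 3.70 elsewhere. The mean over 10 measured brush border genes was 5.79, 9.20 and 10.54 in HFD-sitagliptin replicates 1, 2 and 3, and 10.20 to 10.74 in the HFD arrays. Over 7 proximal small intestine genes it was 5.64, 5.92 and 6.95 in these replicates, and 6.32 to 6.51 in the HFD arrays. Over 9 measured colon genes the mean was 5.75, 4.34 and 4.99 in the HFD-sitagliptin arrays and 4.55 to 4.64 in the HFD arrays. In replicate 1, 3 of these 9 genes were above all other arrays, and *Hoxb13* and *Hoxd13* were at 3.26 and 3.22 there. *Slc37a2* was at 4.97 there, at 4.70 and 8.46 in HFD-sitagliptin replicates 2 and 3, and at 7.38 to 8.52 in the HFD arrays. *Aqp8* was at 7.48 in HFD-sitagliptin replicate 3 and at 3.44 to 3.97 on the other arrays. *Hoxb13*, *Hoxd13*, *Slc37a2* and *Aqp8* were named after their values were seen. *Epcam*, a marker of all gut epithelium, was at 10.97 to 11.32 on all 6 arrays, *Vil1* of the microvillus core was at 9.43 in replicate 1 and 11.01 to 11.31 elsewhere, and *Cdh17*, a cadherin of intestinal epithelium, was at 10.56 there and 11.59 to 11.87 elsewhere. The mean over 6 smooth muscle genes was 10.31 in replicate 1 and 8.58 to 8.99 in the other arrays. *Fabp6*, the bile acid binding protein of the ileum, was bright in both replicate 2 arrays, at 13.16 in the HFD-sitagliptin pup and 12.62 in the HFD pup, and lay at 3.61 to 7.36 in the remaining ones, and *Slc10a2*, the ileal bile acid transporter, had its 2 highest values, 9.58 and 6.82, in the same arrays. The fold changes of the 7 genes are therefore given with and without HFD-sitagliptin replicate 1. In whole intestine, fewer enterocytes, another segment and less RNA per enterocyte cannot be told apart.

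**Figure D1:**
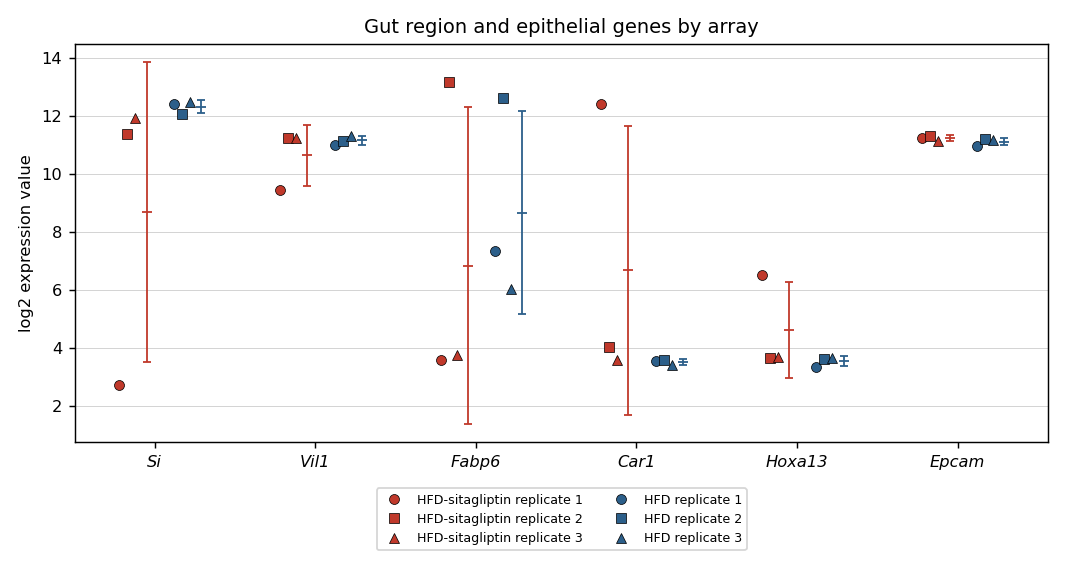
Log2 expression values (y axis) of gut region and epithelial genes (x axis) in each array, with HFD-sitagliptin in red to the left of HFD in blue; bars are the group mean ± SD (n = 3). HFD-sitagliptin replicate 1 is at 2.72 for *Si* and 12.41 for *Car1*, while *Epcam* lies at 10.97 to 11.32 in all arrays.

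The sequences before the start sites of *Fabp1*, *Fabp2* and *Apoa4* are shown because only these 3 measured fat absorption genes had a RefSeq window. They are the 250 bases before each RefSeq start, 5′ to 3′, on the plus strand of GRCr8, at chr4:104749090-104749339 for *Fabp1*, chr2:213724379-213724628 for *Fabp2* and chr8:55435529-55435778 for *Apoa4*. The search covered both strands, with matches in capitals, for the TATA box letters TATAAA and for AGATAA, a form of the site that GATA factors bind. It also covered a half-site of nuclear receptors such as HNF4 and PPAR, AGGTCA, with its variant form spelled AGTTCA. Other forms of the GATA site were not searched, such as the TGATAA near the 5′ end of the *Fabp1* window. The motifs were chosen with these sequences in view.
Fabp1: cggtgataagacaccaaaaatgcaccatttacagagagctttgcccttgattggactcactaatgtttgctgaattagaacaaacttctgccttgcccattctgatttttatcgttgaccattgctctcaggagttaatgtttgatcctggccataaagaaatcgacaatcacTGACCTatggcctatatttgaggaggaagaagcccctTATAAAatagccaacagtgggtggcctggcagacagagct
Fabp2: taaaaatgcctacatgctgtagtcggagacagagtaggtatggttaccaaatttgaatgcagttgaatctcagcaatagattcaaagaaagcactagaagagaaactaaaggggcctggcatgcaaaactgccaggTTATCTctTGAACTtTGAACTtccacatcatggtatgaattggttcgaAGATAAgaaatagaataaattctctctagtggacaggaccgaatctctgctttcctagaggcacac
Apoa4: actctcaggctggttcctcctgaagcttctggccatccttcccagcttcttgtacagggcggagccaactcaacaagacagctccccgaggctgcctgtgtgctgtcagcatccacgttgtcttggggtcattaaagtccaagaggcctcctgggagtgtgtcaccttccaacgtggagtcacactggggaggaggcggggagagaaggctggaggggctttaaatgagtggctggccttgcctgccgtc

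The *Fabp1* window held TATAAA at -40 to -35 from the start and AGGTCA on the minus strand at -77 to -72. TATAAA was present in 12.9% of 33469 rat windows of this length, and AGGTCA in 14.1%. The *Fabp2* window held AGATAA at 2 positions, on the minus strand at -114 to -109 and on the plus strand at -66 to -61, and 10.3% of all windows held it at least once. It also held AGTTCA on the minus strand at -106 to -101 and at -99 to -94, a letter string in 12.2% of windows. The 2 half-sites form a direct repeat 1 base apart at -106 to -94, an arrangement of such half-sites found in 27 of the 33469 windows (0.0807%). The *Apoa4* window held none of these motifs, and a match describes the sequence only.

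All 7 genes had their lowest value in HFD-sitagliptin replicate 1, as did 21.2% of all genes. The groups separated for none of the 7, against 11.5% of all genes. Replicates 2 and 3 of the HFD-sitagliptin group lay among or near the HFD arrays. No gene of the 7 was past the threshold of the study, which asks for a change of 1.5-fold or more and for p under 0.05 before adjustment, and which 2.01% of all genes passed. The median log2 fold change over the 7 genes, HFD-sitagliptin minus HFD, was -1.23 over the 6 arrays, and -0.00050 when HFD-sitagliptin replicate 1 was left out, where 0 of 7 were past the threshold and 1.63% of all genes were. The medians over all 18166 genes were 0.010 and -0.0072.

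**Figure D2:**
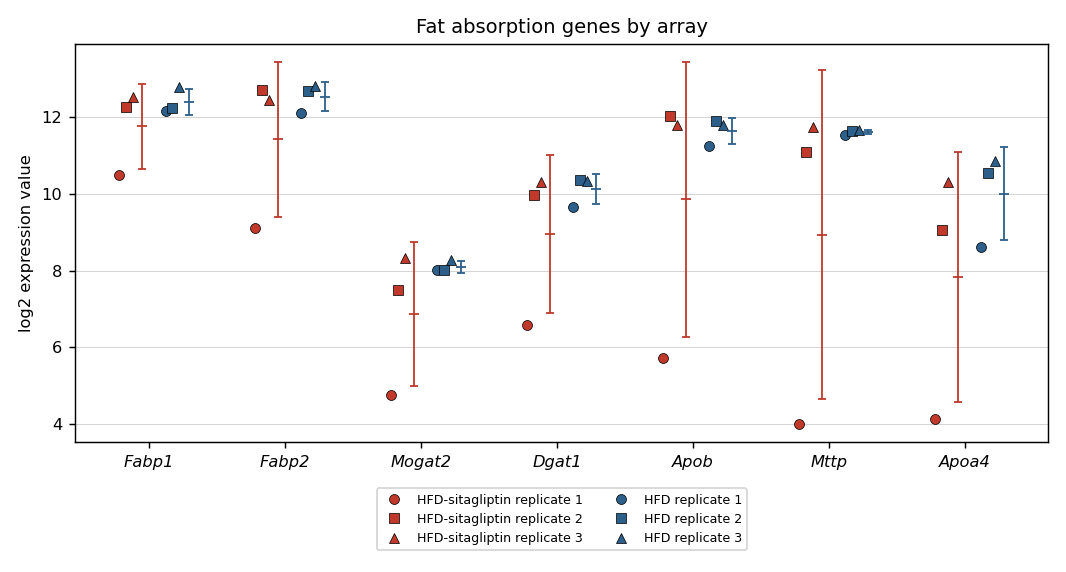
Log2 expression values (y axis) of the 7 fat absorption genes (x axis) in each array, HFD-sitagliptin in red to the left of HFD in blue; bars are the group mean ± SD (n = 3). The circle of HFD-sitagliptin replicate 1 is the lowest point for every gene, from 4.005 for *Mttp* to 10.48 for *Fabp1*.

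*Fabp1*, the liver-type fatty acid binding protein of the enterocyte cytosol, had log2 values of 10.48, 12.26 and 12.51 in HFD-sitagliptin pups, against 12.14, 12.23 and 12.78 in HFD pups. Replicate 1 of the HFD-sitagliptin group was low, and the other 5 values spanned 0.64. The log2 fold change was -0.63 (standard error 0.54, limma adjusted p = 0.741) with all arrays and -0.00050 (standard error 0.23) without that array. *Fabp2*, the intestinal fatty acid binding protein, had 9.10, 12.71 and 12.43 in HFD-sitagliptin pups and 12.09, 12.68 and 12.79 in HFD pups. That array minus the mean of the other 5 was -3.44, a wider gap than the -1.90 of *Fabp1*. Its log2 fold change was -1.10 (standard error 0.93, limma adjusted p = 0.741) with all arrays, and 0.052 (standard error 0.25) without that array, with the sign turned.

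*Mogat2*, the monoacylglycerol acyltransferase that starts re-esterification in the enterocyte, had log2 values of 4.77, 7.50 and 8.33 in HFD-sitagliptin pups, against 8.01, 8.01 and 8.28 in HFD pups. Here replicate 2 of the HFD-sitagliptin group also lay below all HFD arrays, while replicate 3 lay above them. The log2 fold change was -1.23 (standard error 0.86, limma adjusted p = 0.719), and -0.18 (standard error 0.27) without replicate 1. Without HFD-sitagliptin replicate 3 it was -1.96 with an unadjusted p of 0.0494 in limma, which made *Mogat2* the 1 gene of the 7 past the threshold in that fit, where 4.84% of all genes were. *Dgat1*, which adds the last acyl chain to make triacylglycerol, had 6.60, 9.97 and 10.31 in HFD-sitagliptin pups and 9.67, 10.35 and 10.34 in HFD pups. Its log2 fold change was -1.16 (standard error 0.95, limma adjusted p = 0.736), and 0.018 (standard error 0.26) without replicate 1, where the values of the groups overlapped.

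*Apob*, the structural protein of the chylomicron, had log2 values of 5.73, 12.03 and 11.79 in HFD-sitagliptin pups and 11.25, 11.88 and 11.79 in HFD pups. The highest and the lowest value of the gene were thus both in the HFD-sitagliptin group. Its log2 fold change was -1.79 (standard error 1.63, limma adjusted p = 0.756), and 0.27 (standard error 0.23) without replicate 1. *Mttp*, the transfer protein that lipidates apolipoprotein B, had 4.005, 11.08 and 11.73 in HFD-sitagliptin pups and 11.54, 11.62 and 11.65 in HFD pups. Its HFD values spread the least of the 7 genes, at 11.60 ± 0.058 (SD, n = 3), and the HFD-sitagliptin values averaged 8.94 ± 4.28 (SD, n = 3). The log2 fold change was -2.66 (standard error 1.95, limma adjusted p = 0.724), and -0.20 (standard error 0.21) without replicate 1.

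*Apoa4*, an apolipoprotein of the chylomicron surface that is made in proportion to fat intake, had log2 values of 4.15, 9.06 and 10.31 in HFD-sitagliptin pups, against 8.62, 10.53 and 10.86 in HFD pups. It was the gene that varied most among the 5 arrays other than HFD-sitagliptin replicate 1, with a range of 2.24, against 0.64 to 0.84 for the other 6 genes. HFD replicate 1 and HFD-sitagliptin replicate 2 were its low arrays, 1 in each group. The log2 fold change was -2.16 (standard error 1.58, limma adjusted p = 0.724), and -0.32 (standard error 0.76) without replicate 1. With the replicate number as a block, *Apoa4* was the 1 gene of the 7 past the threshold (unadjusted p = 0.0406 in limma), and 2.62% of all genes were past it in that fit.

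**Figure D3:**
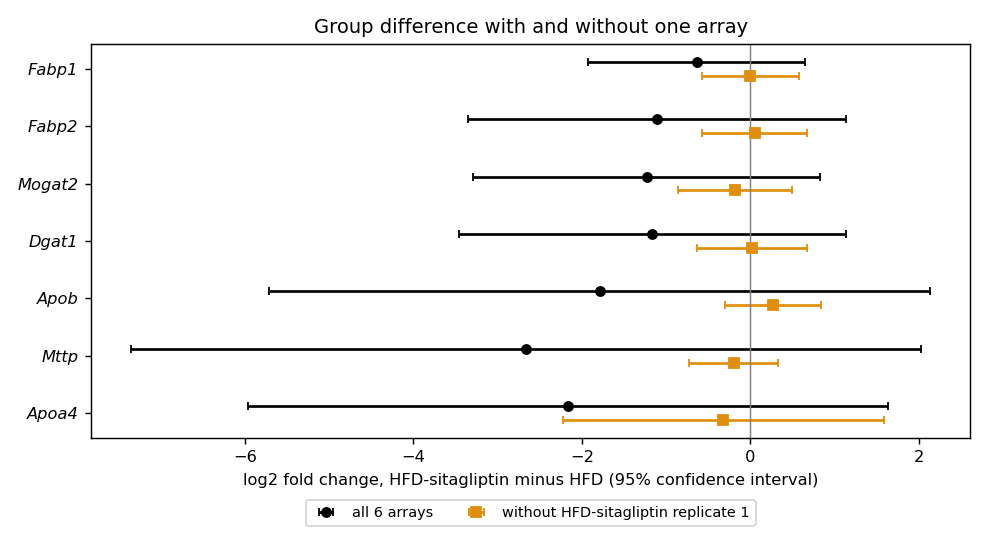
Log2 fold change, HFD-sitagliptin minus HFD (x axis), of each of the 7 genes (y axis) with its 95% confidence interval from limma, with all 6 arrays (black) and without HFD-sitagliptin replicate 1 (orange). All intervals include 0, and the points lie between -2.66 and -0.63 with all arrays and between -0.32 and 0.27 without that array.

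Without HFD-sitagliptin replicate 1, the 95% confidence intervals of the log2 fold change ran from -0.30 to 0.84 for *Apob*, from -0.73 to 0.33 for *Mttp* and from -0.58 to 0.58 for *Fabp1*. Those of *Fabp2*, *Dgat1* and *Mogat2* ran from -0.57 to 0.67, from -0.63 to 0.67 and from -0.85 to 0.49. The interval of *Apoa4* was the widest, from -2.22 to 1.58. These intervals rest on 2 pups against 3. Among the 5 arrays, HFD replicate 1 was the lowest for 5 of the 7 genes and HFD-sitagliptin replicate 2 for the other 2, *Mogat2* and *Mttp*, while HFD replicate 3 was the highest for 3 genes.

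The size of the gap in HFD-sitagliptin replicate 1 differed from gene to gene. Background there was taken as 4.41, the 95th percentile of 1185 olfactory receptor genes on that array, and *Mttp* and *Apoa4* were not above it, so that only a bound can be given for them. Against this level *Mttp* was at least 139-fold lower than the mean of the other 5 arrays and *Apoa4* at least 44.2-fold lower, and their fold changes over all 6 arrays rest on a background value. The log2 value in that array minus the mean of the other 5 was -6.02 for *Apob*, a 64.9-fold difference in signal. It was -3.53 for *Dgat1*, -3.44 for *Fabp2*, -3.26 for *Mogat2* and -1.90 for *Fabp1*, a 3.74-fold difference. The *Mogat2* signal in that array, 4.77, was near background. All 7 were at least 1 below the mean of the other arrays, as were 3.90% of all genes, those near background included. The median gap was -3.53 for the 7 genes, -4.18 for the 10 brush border genes and -2.69 for 5 ileum genes. It was -0.57 for 7 proximal small intestine genes, of which 2 were at least 1 below. In the same array 9 of 10 brush border genes had their lowest value, against 21.2% of all genes. There 3 of 9 colon genes and 6 of 6 smooth muscle genes had their highest value. The share of all genes with their highest value there is not given here. The part of these marker genes in the values of the 7 was not tested beyond the fits without that array.

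The genes most like the 7 across the arrays were *Slc7a7*, an amino acid transporter subunit of the basolateral membrane, *Lpgat1*, a lysophospholipid acyltransferase, *Nudt5*, an ADP-ribose hydrolase, *Sfxn1*, a mitochondrial serine transporter, and *Pcsk5*, a proprotein convertase. Likeness was Pearson's r over the 6 arrays with the mean of the 7 genes, each centred on its own mean, and it lay between 0.996 and 0.998 for these 5. It is set mainly by HFD-sitagliptin replicate 1, which lay at -3.74 in that mean, while the other arrays lay at 0.33 to 1.07. *Slc7a7* had log2 values of 5.11, 8.39 and 8.70 in HFD-sitagliptin pups and 8.03, 8.64 and 8.71 in HFD pups. *Lpgat1* had 7.13, 9.27 and 9.57 in HFD-sitagliptin pups and 9.11, 9.41 and 9.56 in HFD pups.

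Of 105 further genes listed for lipid entry, re-esterification, lipid droplets, lipoprotein assembly, lipoprotein receptors and transcriptional control, 95 were measured. With all arrays 3 of the 95 were lower past the threshold, none was higher in limma and 92 were not past it. The 3 were *Apobec1*, *Lpin1* and *Abcg5*, against 2.01% of all genes past the threshold and 1.30% lower past it, and 4 of the 95, these 3 and *Abhd5*, had an unadjusted p under 0.05. The lowest adjusted p among them was 0.718, which was also the lowest of all genes. Over the 95 genes the median difference was -0.12 on the log2 scale. Without HFD-sitagliptin replicate 1, 2 of the 95 were lower past the threshold, *Apobec1* and *Creb3l3*, against 0.903% of all genes lower past it, and the median was -0.059. The count was 24 without HFD-sitagliptin replicate 3, 5 higher and 19 lower, where 4.84% of all genes were past the threshold. It was 1 without HFD replicate 2, in which 2.58% of all genes were past the threshold, or without HFD replicate 3, with 2.68% of all genes. It was 7 with the replicate number as a block, all of them lower, where 2.62% of all genes were past the threshold. The groups did not overlap for 18 of the 95 genes, against 11.5% of all genes, and for 22 without HFD-sitagliptin replicate 1, against 19.7%.

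*Apobec1*, the deaminase that edits the *Apob* transcript so that the intestine makes the short form of the protein, was lower in pups of HFD-sitagliptin dams. It had log2 values of 7.44, 7.59 and 7.63 in HFD-sitagliptin pups, against 8.15, 8.28 and 8.27 in HFD pups. The 3 values of each group lay close together and the groups did not overlap. The log2 fold change was -0.68 (standard error 0.12, unadjusted p = 0.000884, adjusted p = 0.718 in limma), and -0.62 (standard error 0.12) without HFD-sitagliptin replicate 1. It stayed past the threshold in all 6 fits with 1 array left out, between -0.72 and -0.62. *A1cf*, added after its values were seen, encodes the RNA-binding partner of this deaminase and had 7.17, 9.11 and 9.32 in HFD-sitagliptin pups and 9.59, 9.46 and 9.11 in HFD pups, with overlapping groups and a log2 fold change of -0.17 (standard error 0.18) without replicate 1.

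*Creb3l3*, a transcription factor of the endoplasmic reticulum membrane that acts on apolipoprotein genes in mouse liver and intestine, had log2 values of 4.71, 9.04 and 9.51 in HFD-sitagliptin pups and 9.88, 10.18 and 9.89 in HFD pups. All 3 HFD-sitagliptin values lay below all HFD values. Its log2 fold change was -2.23 (standard error 1.21, unadjusted p = 0.111 in limma) with all arrays, not past the threshold, and -0.71 (standard error 0.19, unadjusted p = 0.0126) without replicate 1. The adjusted p values were 0.718 and 0.843. In the fit without replicate 1, the brush border gene *Si* was at -0.66 (standard error 0.22), also lower past the threshold. Over the 10 measured brush border genes the median log2 fold change in that fit was -0.43, with 7 negative and 3 positive. Their part in the *Creb3l3* value was not tested.

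*Lpin1*, a phosphatidate phosphatase on the way to triacylglycerol, had 5.57, 6.06 and 5.83 in HFD-sitagliptin pups and 6.12, 6.67 and 6.56 in HFD pups, and the groups did not overlap. Its log2 fold change was -0.63 (standard error 0.20, adjusted p = 0.718 in limma), and -0.50 (unadjusted p = 0.0514) without HFD-sitagliptin replicate 1. *Abcg5*, a subunit of the sterol exporter of the apical membrane, had 5.10, 6.59 and 7.38 in HFD-sitagliptin pups and 7.32, 7.83 and 8.25 in HFD pups, and the groups overlapped. Its log2 fold change was -1.44 (standard error 0.58, adjusted p = 0.718 in limma), and -0.81 (unadjusted p = 0.0659) without that array. *Abcg5* also lost the threshold once HFD-sitagliptin replicate 2 or any HFD array was left out, and by the methods' t-test, and *Lpin1* once HFD replicate 2 or 3 was, and with array weights (-0.58).

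**Figure D4:**
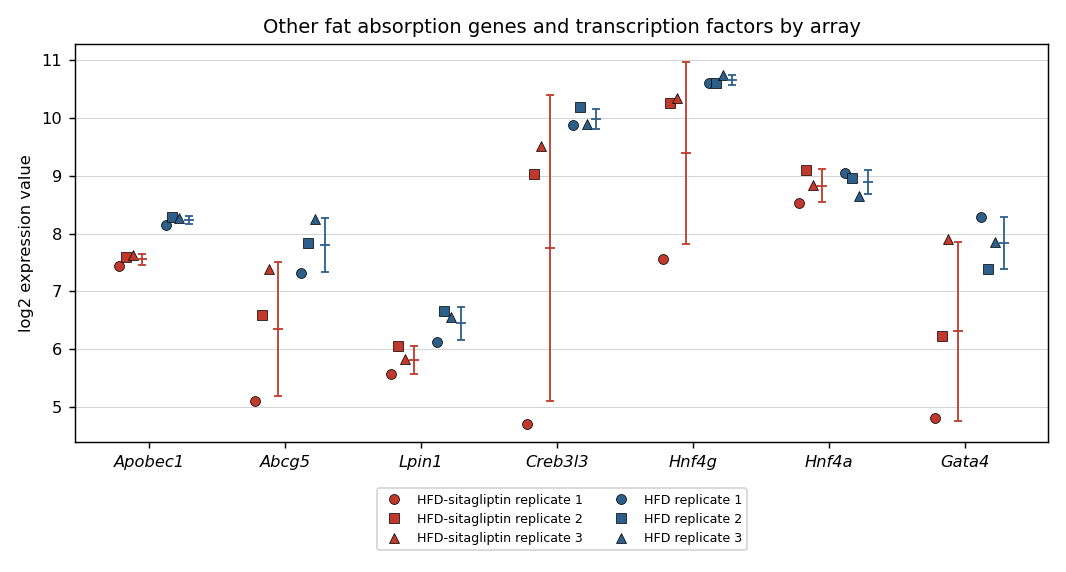
Log2 expression values (y axis) of 7 other genes of fat absorption and its transcriptional control (x axis) in each array, HFD-sitagliptin in red to the left of HFD in blue; bars are the group mean ± SD (n = 3). The groups are apart for *Apobec1*, at 7.44 to 7.63 against 8.15 to 8.28, and *Hnf4a* stays between 8.54 and 9.11 in all arrays.

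Of 17 measured transcription factors that act on enterocyte lipid genes, none was past the threshold in limma with all arrays, against 2.01% of all genes. Their median log2 fold change was 0.013. Without HFD-sitagliptin replicate 1 the median was -0.021 and 1 of 17 was past the threshold, *Creb3l3*, against 1.63% of all genes. *Hnf4a*, a nuclear receptor that binds the promoters of many apolipoprotein genes, had 8.54, 9.11 and 8.83 in HFD-sitagliptin pups and 9.04, 8.96 and 8.65 in HFD pups (log2 fold change 0.09, standard error 0.18, without replicate 1). *Hnf4g*, its relative in the gut, had 7.57, 10.26 and 10.34 in HFD-sitagliptin pups and 10.61, 10.59 and 10.75 in HFD pups, with groups that did not overlap (log2 fold change -1.26, standard error 0.72, and -0.35, standard error 0.12, without replicate 1). *Gata4*, a factor of the proximal small intestine, had 4.81, 6.23 and 7.90 in HFD-sitagliptin pups and 8.28, 7.38 and 7.86 in HFD pups, with overlapping groups (log2 fold change -0.78, standard error 0.54, without replicate 1). *Hnf4a*, *Gata4* and the nuclear receptor gene *Pparg* were chosen after their values were seen. *Pparg* was high in replicate 1, at 8.30, against 5.06 and 6.11 in the other HFD-sitagliptin arrays and 5.30 to 5.83 in HFD pups.

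HFD-sitagliptin replicate 1 was at least 1 below the mean of the other 5 arrays for 31 of the 95 further genes, against 3.90% of all genes, and at least 1 above it for 7. The share over all genes includes genes near background and was not matched for signal level. The low ones were 4 of 11 lipid entry genes, 7 of 23 re-esterification genes, 6 of 15 lipid droplet genes, 8 of 20 lipoprotein assembly genes, 1 of 9 receptor genes and 5 of 17 transcription factors. *Apoc2*, the cofactor of lipoprotein lipase, and *Soat2*, which esterifies cholesterol in the enterocyte, were not above background there and were at least 55.3-fold and at least 19.9-fold lower than in the other arrays. *Pla2g12b* had a signal of 4.51 in that array, near the background of 4.41. The log2 difference was -4.48 for *Tm6sf2* and -3.66 for *Pla2g12b*, both needed for full lipidation of apolipoprotein B particles in mice. *Acsl5*, an acyl-CoA synthetase, was at -2.90, the fatty acid transport protein gene *Slc27a4* at -1.72 and *Pnpla2*, the triglyceride lipase of lipid droplets, at -1.44. *P4hb*, which encodes the other subunit of the transfer protein complex, was at -1.14. *Sar1b*, the GTPase of chylomicron export vesicles, was at -1.56, and its relative *Sar1a* at 0.61. The 7 higher ones were *Pparg*, *Ffar4*, *Apoe*, *Pltp*, *Sort1*, *Mgll* and *Plin4*, at 1.11 to 2.72. *Lrp1*, a chylomicron remnant receptor, was higher by 0.67. These are the values of 1 array and carry no test, and of the genes in this paragraph all but *Acsl5*, *Slc27a4*, *Pnpla2*, *P4hb* and *Lrp1* were chosen after their values were seen.

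**Figure D5:**
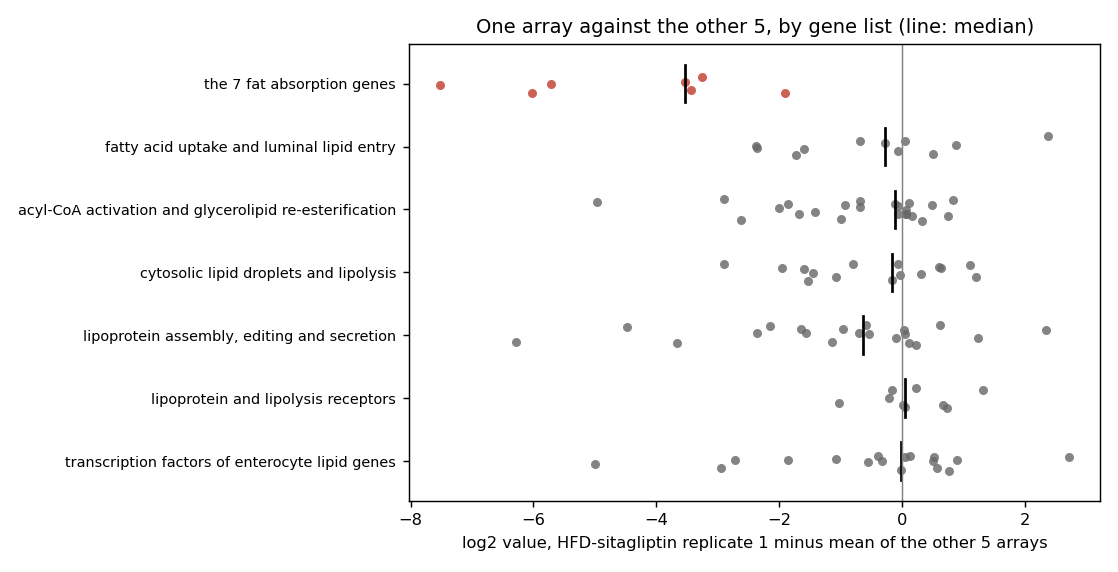
Log2 value in HFD-sitagliptin replicate 1 minus the mean of the other 5 arrays (x axis) for each gene, by gene list (y axis); vertical strokes are list medians. The 7 fat absorption genes (red) have a median of -3.53, with *Mttp* and *Apoa4* plotted at their measured values although not above background in that array, and the 6 lists of further genes have medians between -0.64 and 0.05.

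Markers of other tissues the sample could hold were measured too. The mean over 7 hepatocyte genes was 4.31, 5.98 and 5.20 in HFD-sitagliptin pups and 4.38 to 5.47 in HFD pups, and 6 of the 7 were lowest in HFD replicate 1 while *Fga*, a fibrinogen chain gene, was at 3.23 in HFD-sitagliptin replicate 1 and 6.35 to 7.43 elsewhere. That over 6 adipocyte genes was 5.13 to 6.06 in HFD-sitagliptin pups and 5.04 to 6.14 in HFD pups, and that over 10 exocrine pancreas genes was 4.17 to 4.26 in HFD-sitagliptin pups and 4.01 to 4.24 in HFD pups. The albumin gene *Alb* had log2 values of 6.35, 9.06 and 7.79 in HFD-sitagliptin pups and 4.78, 8.05 and 7.55 in HFD pups. It was highest in the replicate 2 arrays of each group and lowest in HFD replicate 1. In that array *Apob* was at 11.25, its lowest value among the 5 arrays other than HFD-sitagliptin replicate 1. A link between *Alb* and *Apob* was not tested. *Adipoq*, the adiponectin gene of fat cells, was at 6.67, 7.27 and 5.20 in HFD-sitagliptin pups and 5.09, 6.98 and 6.52 in HFD pups. *Cpa1* of the exocrine pancreas was at 3.29 to 3.81 on all arrays.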

How the data were processed

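Intestinal RNA of 3 pups from HFD-sitagliptin dams and 3 pups from HFD dams was measured by the authors on Affymetrix Rat Gene 2.0 ST arrays, 1 array per pup. The labels name a kit and the methods another reagent for the RNA extraction. The authors normalized the arrays in GeneSpring, with an algorithm not given in the sources used here, and deposited 1 value per transcript cluster and array. The deposited values were taken as log2 because of their range of 0.58 to 13.55, with array medians of 4.45 to 4.62.

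Of 36685 clusters, 18511 carried 1 symbol in the platform annotation, 575 several and 17599 none, and a gene with more than 1 cluster (291 genes) was given by the one with the highest mean, which left 18166 genes. Groups came from the labels. Genes were compared with limma 3.58.1 in R 4.3.3 (linear model, empirical Bayes moderation, no covariate) over all genes, and a gene was past the threshold when it changed 1.5-fold or more with p under 0.05 before adjustment, as in the methods. Benjamini-Hochberg adjusted p values over all genes are given beside it. The p values measure the spread between 3 pups per group, and this number of arrays limits the precision. The fit was tested on simulated data.

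The named genes were the measured genes of the main list, the further genes past the threshold with all arrays or without HFD-sitagliptin replicate 1, the gene of each list with the highest mean, set markers and the 5 genes most like the main list. The genes and lists were chosen with earlier results of these data known. Same-numbered arrays of the 2 groups deviated together from their group means, with correlations over genes of 0.15, 0.28 and 0.15, against -0.24 to 0.020 for other pairs, so the replicate number was also used as a block. The pairing rests on these values only. Alternatives were the block, the methods' t-test, an adjusted threshold, array weights, median centring, quantile normalization, trended robust moderation, a filter on dim genes, the mean of a gene's clusters, and each array left out. Promoter sequences were matched by symbol to RefSeq windows of GRCr8, which held 3 of the 7 measured genes.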

Additional observations from a re-analysis of the deposited data

How the results depend on the processing

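Leaving out HFD-sitagliptin replicate 1 turned the log2 difference of *Fabp2* to 0.052, that of *Dgat1* to 0.018 and that of *Apob* to 0.27 (ranges with 1 array left out -1.75 to 0.052, -1.84 to 0.018 and -2.88 to 0.27), none of them past the threshold, and no other alternative turned the sign of any of the 7 genes. Of the 7, the count past the threshold was 0 in the other alternatives and 1 with the replicate block (*Apoa4*), and it ranged from 0 to 1 with 1 array left out. For the 95 further genes the count of 3 became 7 with the replicate block, 6 with median centring and 4 with array weights, all of them lower. It was 2 by the methods' t-test and 0 at an adjusted p under 0.05, and it ranged from 1 to 24 with 1 array left out. With array weights 343 of all 18166 genes were past the threshold. Of all genes, 365 were past the threshold (128 higher and 237 lower), against 471 with median centring (81 higher and 390 lower), 476 with the replicate block, 158 by the methods' t-test and 0 at an adjusted p under 0.05 in limma, where 1040 had an unadjusted p under 0.05. With 1 array left out, this count ranged from 239, without HFD replicate 1, to 880, without HFD-sitagliptin replicate 3, and 161 genes were past it both in the full set and once HFD-sitagliptin replicate 1 was left out. The median log2 fold change of the 7 genes ranged from -1.96 to -0.00050 with 1 array left out. The cause of these changes was not tested. *Apobec1* was past the threshold in every alternative but the adjusted one.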

Other observations

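Some lipid genes were highest in the array in which the 7 genes of fat absorption were lowest. *Ffar4*, a receptor for long-chain fatty acids, was higher by 2.39 on the log2 scale in HFD-sitagliptin replicate 1 than the mean of the other 5 arrays, and *Apoe*, an apolipoprotein made by macrophages among other cells, by 2.35. The mean over 8 macrophage genes was 6.97, 6.44 and 6.26 in HFD-sitagliptin pups and 6.17 to 6.30 in HFD pups. *Ffar4* and *Apoe* were picked with their values in view, and the part of macrophages in the *Apoe* value was not tested.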
